A study of Nothobranchius furzeri with 12 samples.

Results

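Female tail fins of 2 strains of the turquoise killifish, Nothobranchius furzeri, were compared by RNA sequencing: 3 libraries from females of the strain MZCS002 were set against 3 from females of the strain GRZ-BELL. These are 6 of the 12 libraries of the study. The other 6 came from red tails of MZCS002 and yellow tails of GRZ-BELL, 3 each. They are used here to set the strain difference in females beside that in coloured tails. They also enter the filter on mean count and the spread per gene behind the tests between females. The tissue was the part of the female fin that matches the pigmented part of a coloured tail, kept in RNAlater before RNA extraction and oligo-dT-primed cDNA synthesis. No treatment, allele or age is given for any group. The comparison covered the 15170 of 20788 transcript entries with a mean normalized read count of at least 10 over the 12 libraries, and 8701 of these carried a gene symbol.

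The turquoise killifish is an annual fish of African ponds that dry out, and it is kept in laboratories because of its short life span. GRZ is a widely used short-lived laboratory strain. A tail fin holds bony rays, fibroblasts, vessels and nerves under a stratified epidermis with mucous cells, and pigment cells lie beneath that epidermis. Each strain is a separate breeding population, so a difference between strains can hold inherited differences in many genes at once. A number in the library labels also goes with strain, and strain cannot be told apart from any batch which that number may mark. In whole tissue, fewer cells of a type and less RNA per cell cannot be told apart either.

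Markers of the fin were present in the female libraries. The actinodin gene and1, which encodes a fin fold fibre protein, had 408 to 1608 normalized counts in MZCS002 and 650 to 4378 in GRZ-BELL. The posterior patterning gene hoxc13a had 925 to 1732 in MZCS002 and 819 to 1088 in GRZ-BELL. The ovarian genes cyp19a1a and foxl2a were at 0 in all 6 libraries, and the yolk protein gene vtg3 reached at most 6.29.

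One library stood apart. MZCS002 female 2 held 5495553 reads, against 16704074 and 17053983 in the other MZCS002 females and 11666531 to 16113931 in the GRZ-BELL females. At this depth 3 reads are worth 9.43 normalized units, against 2.04 to 3.52 in the other female libraries. Of the tested entries, 2.62% had no read in it, against 0.237% to 0.396% elsewhere among the females. It was the highest of the 6 libraries for 32.5% of the entries and the lowest for 35.3%. It lay more than 2 log2 units from the mean of the other MZCS002 females at 12.2% of the entries, whereas MZCS002 female 1 lay that far from female 3 at 1.65%. The first principal component of the female libraries, with 54.1% of the variance, set this library apart from the other 5, and the second, with 24.2%, separated MZCS002 females 1 and 3 from the GRZ-BELL females. Counts are therefore given with all 6 female libraries and without MZCS002 female 2, and the 28 named genes with the largest differences were required to be called both ways.

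Between the strains, 264 entries (1.74% of those tested) passed the test, of which 124 (0.817%) were higher and 140 (0.923%) lower in MZCS002 females. The test was limma on log2(normalized count + 1) with Benjamini-Hochberg adjustment, and an entry is said to be called at an adjusted p under 0.05. The calls were large differences: 84 of the higher and 101 of the lower ones exceeded 2 log2 units, and the smallest was 1.02. In simulated data, 1.49% of 2-fold and 59.7% of 4-fold changes were recovered. The simulation did not hold the divergence of MZCS002 female 2, so recovery in the real data may differ. The 3 MZCS002 values and the 3 GRZ-BELL values did not overlap in any of the 264, and they did not overlap in 20.1% of all tested entries. Only 108 of the called entries carried a gene symbol, and 59.1% of the called against 42.6% of the tested entries had none. Without MZCS002 female 2, 358 entries (2.36%) were called, 178 (1.17%) higher and 180 (1.19%) lower. The 2 sets shared 227 entries (86.0% of the 264 and 63.4% of the 358), while 37 were lost and 131 were called only without it. The count fell to 111, 112 and 133 when GRZ-BELL female 1, 2 or 3 was left out, and a fit on the female libraries alone called 74. With libraries scaled to equal totals, where the median of all entries moved to -0.23, 85 were higher and 178 lower, so that 32.3% of the calls were higher against 47.0% before.

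The named genes were picked by the size of their difference and are ordered below by known role, with no test of any such grouping. The largest named decreases in MZCS002 females included genes of ion transport and membrane excitability. The gene slc13a1, which encodes a sodium-sulfate cotransporter, had no read in any of the 3 MZCS002 females, against 108, 127 and 76.6 normalized counts in the GRZ-BELL females. Set against a floor of 3 reads per library, it was at least 22.0-fold lower in MZCS002 (adjusted p = 2.8e-05, and 2e-05 without MZCS002 female 2). The gene abcc8, for the sulfonylurea receptor subunit of ATP-sensitive potassium channels, was also at 0 reads in MZCS002 females, against 68.1, 65.8 and 32.8 in GRZ-BELL females. It was at least 11.8-fold lower (adjusted p = 0.00035, and 0.00032 without MZCS002 female 2). With MZCS002 female 2 left out, the bounds were 43.8-fold for slc13a1 and 23.5-fold for abcc8. The calcium release channel gene ryr1b, known from the sarcoplasmic reticulum of skeletal muscle, had 0.899, 0 and 27.19 in MZCS002 and 363, 323 and 313 in GRZ-BELL females. Its log2 difference was -6.47 ± 0.98 (SE, adjusted p = 0.0043), or -5.51 without MZCS002 female 2. MZCS002 female 3 was the highest of its group and still below every GRZ-BELL female, and the log2 difference without it was -7.92. The sodium pump subunit gene atp1a3a, best known from neurons, had 2.70, 0 and 2.04 in MZCS002 and 34.1, 44.98 and 32.8 in GRZ-BELL females (log2 -4.08 ± 0.74, adjusted p = 0.013). Leaving out any GRZ-BELL female ended this call (adjusted p up to 0.079).

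Several of the named decreases were genes known for roles in nerve cells. The vesicle priming factor gene unc13a had 1 read in all MZCS002 females together, with values of 0, 3.14 and 0, against 71.7, 63.3 and 92.2 in GRZ-BELL females. The mean was 72.3 times lower in MZCS002, with a 95% counting interval of 39.5 to 8810 from the summed reads (adjusted p = 0.00072, and 9e-05 without MZCS002 female 2). The single read was in MZCS002 female 2, and without that library the bound was at least 32.0-fold lower. The vesicular glutamate transporter gene slc17a6a, with 1 read and values of 0, 0 and 0.680 in MZCS002, had 10.6, 44.1 and 18.8 in GRZ-BELL females. Its ratio of 108 had a counting interval of 13.1 to 2994 (adjusted p = 0.012). Without GRZ-BELL female 2 the ratio was 64.7, and the call of slc17a6a was lost without GRZ-BELL female 2 or 3, at adjusted p up to 0.10. Without MZCS002 female 3, which held the read, the bound was 4.04-fold. The axonal adhesion gene cntn1b was read well in both strains, with 44.0, 25.1 and 99.9 in MZCS002 and 657, 2047 and 883 in GRZ-BELL females. Its log2 difference was -4.43 ± 0.59 (adjusted p = 0.0017, and 0.003 without MZCS002 female 2). The gene hapln4, for a link protein of the hyaluronan matrix around neurons, had 0, 0 and 1.36 in MZCS002 from 2 reads, against 32.9, 44.1 and 41.4 in GRZ-BELL females. Its ratio was 87.2 with a counting interval of 15.8 to 487 (adjusted p = 0.011), and the call was lost when any GRZ-BELL female was left out, at adjusted p up to 0.063. Both of its reads were in MZCS002 female 3, without which the bound was 6.51-fold. None of these 4 genes was in the list of nerve and glia markers. The 5 tested members of that list had 0 calls by limma and edgeR, which called 264 and 216 of all 15170 tested entries. Their median log2 difference was 0.20 with and -0.36 without MZCS002 female 2. An unadjusted p under 0.05 was reached by 2 members (40%), against 15.6% of all tested entries. These 2, erbb3b and mbpa, had negative log2 differences of -1.17 ± 0.46 and -1.11 ± 0.40. The other 3 were positive, with 0.71 ± 0.48 for elavl4, 0.72 ± 0.62 for gap43 and 0.20 ± 0.61 for tubb5. The myelin gene mbpa had 421, 173 and 192 in MZCS002 and 518, 386 and 712.2 in GRZ-BELL females (adjusted p = 0.21).

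A further set of decreases were enzymes and transporters of metabolism, and the peptide gene insl5a is given after them. The mitochondrial acyltransferase gene gpat2 had 23.4, 6.29 and 1.36 in MZCS002 and 250, 190 and 215 in GRZ-BELL females, a log2 difference of -4.86 ± 0.69 (adjusted p = 0.0026) that was -5.72 without MZCS002 female 1 and -4.03 without female 3. The glycolytic gene aldoca, for aldolase C, had 4.49, 0 and 2.04 in MZCS002 against a tight 59.9, 60.8 and 60.2 in GRZ-BELL females (log2 -4.58 ± 0.65, adjusted p = 0.0027, and log2 -3.91 without MZCS002 female 2). The pyrimidine breakdown gene dpys had 2.70, 0 and 1.36 in MZCS002 and 77.5, 45.8 and 28.9 in GRZ-BELL females (adjusted p = 0.0096). The call of dpys was lost without GRZ-BELL female 1 or 2, at adjusted p up to 0.067, while those of gpat2 and aldoca held with each female library left out. The cystine and glutamate exchanger gene slc7a11, which sits in the melanin list because its loss alters pheomelanin in mice, had 0.899, 3.14 and 1.36 in MZCS002 and 71.7, 24.2 and 178 in GRZ-BELL females. With 4 reads in MZCS002, its log2 difference was -4.70 ± 0.76 (adjusted p = 0.0063, and 0.0054 without MZCS002 female 2), and it was -5.43 without GRZ-BELL female 2 and -4.01 without GRZ-BELL female 3. The methionine sulfoxide reductase gene msrab had 27.0, 3.14 and 31.3 in MZCS002 and 277, 326 and 210 in GRZ-BELL females. MZCS002 female 2 was the lowest there, and the log2 difference was -4.11 ± 0.63 with it and -3.16 without it, with adjusted p of 0.0044 and 0.0003. The relaxin family peptide gene insl5a had 6.29, 25.1 and 0 in MZCS002 and 268, 74.1 and 246 in GRZ-BELL females. It had the weakest call of the 14 named decreases (log2 -4.89 ± 1.11, adjusted p = 0.046), which was lost when MZCS002 female 1 or 3 or any GRZ-BELL female was left out, at adjusted p up to 0.19. Its log2 difference ran from -5.98 without MZCS002 female 2 to -3.63 without MZCS002 female 3.

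**Figure D1:**
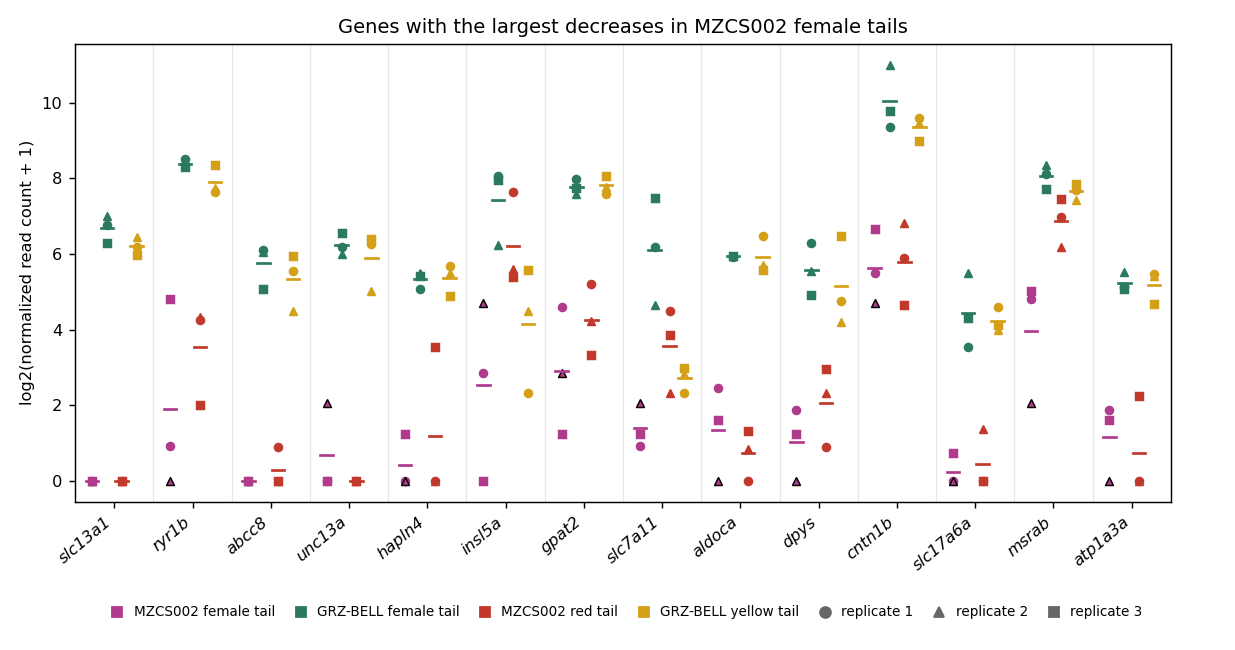
Each point is 1 library, given as log2(normalized read count + 1), for the 14 named genes with the largest decreases in MZCS002 females; within a gene the groups run MZCS002 female, GRZ-BELL female, MZCS002 red and GRZ-BELL yellow, short lines are means over 3 libraries, and black edges mark MZCS002 female 2. The MZCS002 females lie below the GRZ-BELL females in every gene, and the red tails lie below the yellow tails in all genes but insl5a, slc7a11 and msrab, where the 2 overlap. Red and yellow tails did not overlap in 5177 of all 15170 tested entries.

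Among the largest named increases in MZCS002 females, col9a1b came first with all 6 libraries and mycbpap without MZCS002 female 2, with log2 differences of 5.65 and 5.31. The gene col9a1b encodes a chain of type IX collagen, a cartilage collagen, and had 53.9, 145 and 15.0 normalized counts in MZCS002 and no read in any GRZ-BELL female. It was at least 25.5-fold higher in MZCS002 (adjusted p = 0.0058). The bound was 12.3-fold and the adjusted p 0.013 without MZCS002 female 2, its highest library. The gene mycbpap, for a partner of the MYC-binding protein, had 98.8, 78.6 and 72.7 in MZCS002 and 1.17, 0.833 and 1.56 in GRZ-BELL females. The MZCS002 libraries were close to each other here, and the log2 difference was 5.27 ± 0.53 (adjusted p = 0.00021, and 0.00033 without MZCS002 female 2). The gene pnkd, mutated in a human paroxysmal dyskinesia, had 74.6, 170 and 76.8 in MZCS002 and 4.70, 1.67 and 2.35 in GRZ-BELL females (log2 4.76 ± 0.58, adjusted p = 0.00092). The leucine-rich repeat gene lrrc20 had 8.99, 6.29 and 22.4 in MZCS002 and 1 read in the GRZ-BELL females together. Its ratio of 48.2 had a counting interval of 8.81 to 2085 (adjusted p = 0.033), and its call held only without MZCS002 female 2 among the leave-outs of a female library, being lost at adjusted p up to 0.13 otherwise. The ratio was 29.3 without MZCS002 female 3, and the bound was 4.17-fold without GRZ-BELL female 3, which held the read.

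Lipid, secretory and stress-related genes were among the increases. The gene pctp, for the phosphatidylcholine transfer protein, had 159, 380 and 106 in MZCS002 and 10.6, 8.33 and 15.6 in GRZ-BELL females (log2 3.94 ± 0.44, adjusted p = 0.00045, and log2 3.43 without MZCS002 female 2). The phospholipase gene pla1a had 15.3, 31.4 and 19.7 in MZCS002 and 2.35, 0 and 2.35 in GRZ-BELL females (adjusted p = 0.015, and 0.061 without GRZ-BELL female 2). The Bax inhibitor gene tegt, whose product lies in the membrane of the endoplasmic reticulum and restrains cell death, was at 1204, 651 and 776 in MZCS002 and 103, 66.6 and 69.6 in GRZ-BELL females. Its log2 difference of 3.42 ± 0.31 had the smallest adjusted p of the 14 named increases, 0.00011, and it was 3.61 without MZCS002 female 2. The disulfide isomerase gene pdia2 had 286, 371 and 523 in MZCS002 and 92.8, 48.3 and 50.8 in GRZ-BELL females (log2 2.62 ± 0.38, adjusted p = 0.0033). The Ly-6 family gene lye, known from zebrafish epidermis, had 177, 84.9 and 216 in MZCS002 and 18.8, 12.5 and 7.82 in GRZ-BELL females (adjusted p = 0.016, and 0.0093 without MZCS002 female 2). Leaving out MZCS002 female 1 or 3 or GRZ-BELL female 2 or 3 ended the call of lye, at adjusted p up to 0.074.

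The remaining named increases touch translation, telomeres and protein turnover. The translation factor gene eif5a2 had 730, 1298 and 519 in MZCS002 and 72.8, 66.6 and 122 in GRZ-BELL females (log2 3.22 ± 0.45, adjusted p = 0.0026, and 0.005 without MZCS002 female 2). The mitochondrial ribosomal protein gene mrpl17 had 60.2, 251 and 46.2 in MZCS002 and 10.6, 12.5 and 6.25 in GRZ-BELL females, with MZCS002 female 2 the highest. Its log2 difference was 3.11 ± 0.60 with that library and 2.37 without it, at adjusted p of 0.019 and 0.021, and the call was lost without any one GRZ-BELL female, at adjusted p up to 0.083. The gene ten1, for a subunit of the CST complex at telomeres, had 65.6, 97.4 and 34.0 in MZCS002 and 15.3, 10.8 and 7.04 in GRZ-BELL females (log2 2.40 ± 0.47, adjusted p = 0.021). Its call was lost without MZCS002 female 1 or GRZ-BELL female 2 or 3, at adjusted p up to 0.093. The kelch-like gene klhl43 had 123.1, 101 and 72.0 in MZCS002 and 11.7, 4.16 and 3.91 in GRZ-BELL females (adjusted p = 0.004). The gene zgc:110626 had 196, 160 and 274 in MZCS002 and 20.0, 36.6 and 39.9 in GRZ-BELL females (adjusted p = 0.0093, and 0.057 without GRZ-BELL female 1). Of the 28 named genes with the largest differences, 17 kept their call with each female library left out in turn. The count tests on recovered reads called 26 of them with edgeR, hapln4 (adjusted p = 0.058) and insl5a (adjusted p = 0.057) being the exceptions, and 28 with DESeq2. Of all 15170 tested entries, edgeR called 216 and DESeq2 691. The 28 were picked by limma from the same libraries, so these counts are no separate test of them.

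**Figure D2:**
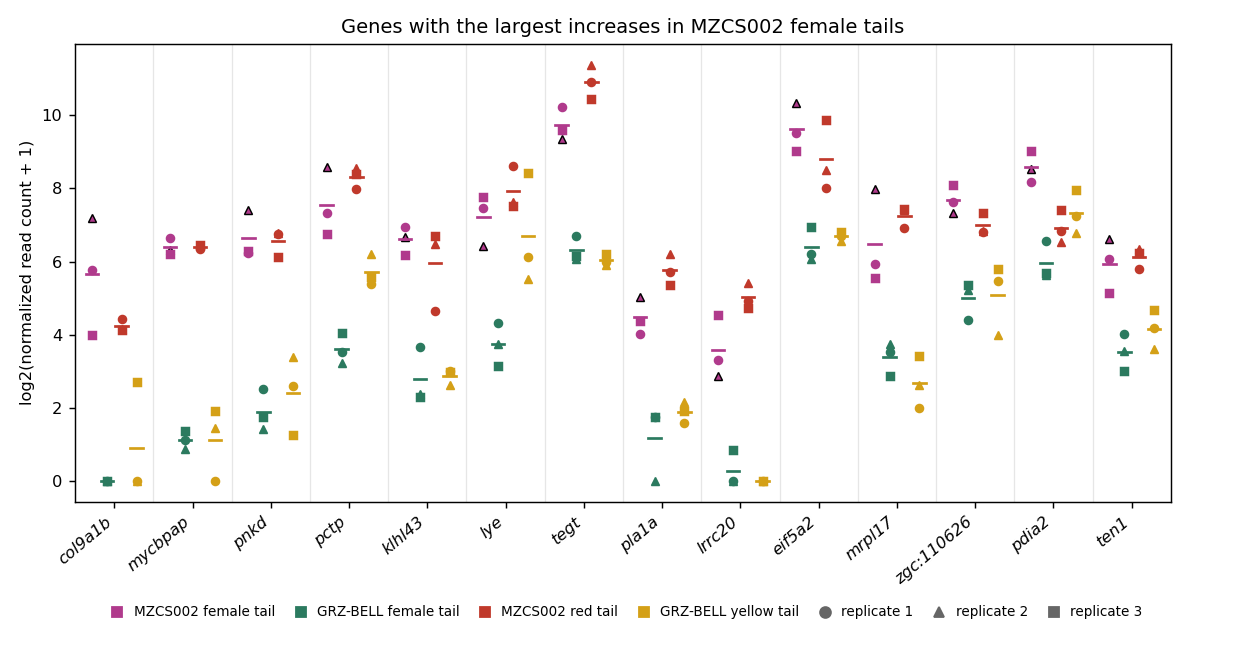
Each point is 1 library, given as log2(normalized read count + 1), for the 14 named genes with the largest increases in MZCS002 females, drawn with the same order of groups, mean lines and black edges for MZCS002 female 2. The MZCS002 females lie above the GRZ-BELL females in every gene, and the red and yellow tails overlap in lye and pdia2. In 5177 of all 15170 tested entries, red and yellow tails did not overlap.

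The called genes with the highest normalized counts are given next. The counts are not scaled to transcript length, so they rank reads and not molecules. The secreted carbonic anhydrase gene ca6 had 2200, 1395 and 1476 in MZCS002 and 452, 645 and 679 in GRZ-BELL females (log2 1.50 ± 0.24, adjusted p = 0.0058). The small GTPase gene rhoab had 2412, 3017 and 2337 in MZCS002 and 859, 1002 and 1227 in GRZ-BELL females (log2 1.34 ± 0.23, adjusted p = 0.011). The retinol saturase gene retsat.2 had 1619, 1512 and 1928 in MZCS002 and 606, 790 and 803 in GRZ-BELL females (log2 1.20 ± 0.24, adjusted p = 0.022). In all 3 each MZCS002 female was above every GRZ-BELL female. Without MZCS002 female 2 their adjusted p were 0.003, 0.016 and 0.016. The gene agr2, for a disulfide isomerase of mucus-secreting cells that was in the epidermis and mucous cell lists, had 2894, 2084 and 5380 in MZCS002 and 1006, 501.4 and 506.6 in GRZ-BELL females (log2 2.33 ± 0.52, adjusted p = 0.042). The other 2 tested members of the mucous and ionocyte list, atp1b1a and atp6v0a1a, had log2 differences of 0.02 and 0.12 and adjusted p of 0.98 and 0.81.

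The lower genes of high count included signalling molecules. The gene ecrg4a, for the secreted peptide precursor augurin, had 322, 361 and 430 in MZCS002 and 1884, 1360 and 1898 in GRZ-BELL females (log2 -2.20 ± 0.24, adjusted p = 0.00043, and 0.0005 without MZCS002 female 2). The TGF-beta co-receptor gene tgfbr3 had 708.04, 688 and 841 in MZCS002 and 1980, 1753 and 1322 in GRZ-BELL females (log2 -1.16 ± 0.23, adjusted p = 0.022). The Wnt ligand gene wnt9b had 478, 223 and 520 in MZCS002 and 1618, 1749 and 965 in GRZ-BELL females (log2 -1.87 ± 0.38, adjusted p = 0.025). Without MZCS002 female 2, tgfbr3 and wnt9b had adjusted p of 0.029 and 0.038. The tuftelin gene tuft1a was the least even of these, with 476, 110 and 303 in MZCS002 and 3152, 904 and 1225 in GRZ-BELL females, and its adjusted p was 0.043 with and 0.079 without MZCS002 female 2. Among these 8 genes, ca6 and ecrg4a kept their calls with each female library left out. The other 6 lost theirs without at least 1 of them, among them GRZ-BELL female 1 and 2 for each, at adjusted p of up to 0.07 for rhoab and 0.19 for tuft1a.

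The 30 lists of genes by cell type or pathway held few of the calls: of their 557 tested members, 9 (1.62%) were called, against 1.74% of all tested entries. Besides agr2 and slc7a11, these were 2 higher and 5 lower genes. The mitotic activator gene cdc20 had 74.6, 302 and 91.8 in MZCS002 and 30.5, 22.5 and 17.98 in GRZ-BELL females (adjusted p = 0.044, and 0.074 without MZCS002 female 2). The transcriptional regulator gene id2a, which belongs to the fin patterning list, had 594, 786 and 1202 in MZCS002 and 325, 275 and 285 in GRZ-BELL females (adjusted p = 0.033, and 0.038 without MZCS002 female 2). Both were higher in each MZCS002 female than in any GRZ-BELL female. The T cell kinase gene lck had 32.3, 15.7 and 34.7 in MZCS002 and 99.8, 77.5 and 77.4 in GRZ-BELL females (adjusted p = 0.043, and 0.068 without MZCS002 female 2). The complement gene c8b had 8.09, 0 and 11.6 in MZCS002 and 72.8, 47.5 and 58.6 in GRZ-BELL females (adjusted p = 0.042, and 0.024 without MZCS002 female 2). The retinoic acid synthesis gene aldh1a2 had 9.88, 6.29 and 22.4 in MZCS002 and 48.2, 92.5 and 64.1 in GRZ-BELL females (adjusted p = 0.037, and 0.062 without MZCS002 female 2). Without MZCS002 female 2 the calls of cdc20, lck and aldh1a2 were thus lost. The lipid peroxide reductase gene gpx4a had 74.6, 9.43 and 44.2 in MZCS002 and 281, 282 and 228 in GRZ-BELL females (adjusted p = 0.033 with and without MZCS002 female 2). The lysosomal membrane protein gene lamp1a had 114, 31.4 and 90.4 in MZCS002 and 268, 523 and 188 in GRZ-BELL females (adjusted p = 0.036, and 0.041 without MZCS002 female 2). Of the 9, slc7a11 kept its call with each female library left out, and each of the other 8 lost its call without GRZ-BELL female 1 and without GRZ-BELL female 2, with a highest adjusted p of 0.12 to 0.19 over the leave-outs. By edgeR, slc7a11 and cdc20 of the 9 were called.

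The pigment cell lists held about as many calls between the females as all entries did. Of 59 tested members of the melanin, pteridine, carotenoid and guanine lists, 1 (1.69%) was called by limma (slc7a11), against 1.74% of all tested entries, and 8 (13.6%) were at an unadjusted p under 0.05, against 15.6% of all. Of the 59, edgeR called 1 and DESeq2 called 4, where they called 216 and 691 of all 15170 tested entries. The median absolute log2 difference of the 59 was 0.41, against 0.39 over all tested entries. In the same fit 12 of the 59 were called between red and yellow tails, where 7.43% of all tested entries were called. The lists were chosen with earlier results of these data known, so this share is no test of pigment genes. The melanin synthesis gene dct had 156, 157 and 205 in MZCS002 and 169, 159 and 204 in GRZ-BELL females, a log2 difference of -0.04 ± 0.23. The first enzyme gene of melanin synthesis, tyr, had 62.0, 59.7 and 99.2 in MZCS002 and 63.4, 20.0 and 46.1 in GRZ-BELL females (log2 0.86 ± 0.44, adjusted p = 0.37). The pteridine synthesis gene gch2 had 182, 97.4 and 388 in MZCS002 and 1056, 30.8 and 51.6 in GRZ-BELL females, where GRZ-BELL female 1 was far above the rest (adjusted p = 0.79). The forkhead gene foxq1a had 323, 160 and 261 in MZCS002 and 1401, 834 and 1837 in GRZ-BELL females (log2 -2.43 ± 0.53, adjusted p = 0.038), and its call was lost with any 1 female library left out, at adjusted p up to 0.15.

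Some lists leaned one way while limma called few or none of their members. All 23 tested cell cycle genes had a positive log2 difference, with a median of 1.25, against 48.3% of all tested entries and a median of -0.02. Of the 23, limma called 1 (cdc20), where it called 1.74% of all tested entries. At an unadjusted p under 0.05 there were 13 (56.5%), against 15.6% of all. Of the 23, edgeR called 1 and DESeq2 called 7, where they called 216 and 691 of all 15170 tested entries. Between red and yellow tails, limma called 8 of the 23 higher in red and 0 lower, where it called 7.43% of all tested entries. The median between females was 0.89 without MZCS002 female 2, in which the list lay 1.40 log2 units above the mean of the 6 libraries. The summed level of the list was 6071, 17377 and 10043 in MZCS002 and 3317, 2768 and 7606 in GRZ-BELL females. The proliferation marker mki67 shows the pattern, with 596, 4755 and 875 in MZCS002 and 350, 301 and 644 in GRZ-BELL females (adjusted p = 0.24). All 68 cytosolic ribosomal protein genes were also positive, with a median of 0.64. None was called by limma or edgeR, and 1 was called by DESeq2, which called 691 of all 15170 tested entries. At an unadjusted p under 0.05 there were 12 (17.6%), close to the 15.6% of all tested entries. Their median depended on one library and on the scaling: it was 0.32 without MZCS002 female 2 and 0.21 after quantile normalization. The lysosome and autophagy list had 2 of 31 members positive (median -0.23) and the insulin, TOR and sirtuin list 3 of 22 (median -0.33), with medians of -0.10 and -0.27 without MZCS002 female 2. The lowest median was that of the immediate early and heat shock list, -0.90, or -0.38 without MZCS002 female 2. Of its 21 tested members, 7 were positive, 6 were at an unadjusted p under 0.05 and 0 were called by limma. The part of MZCS002 female 2 in these leanings was not tested beyond leaving it out.

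**Figure D3:**
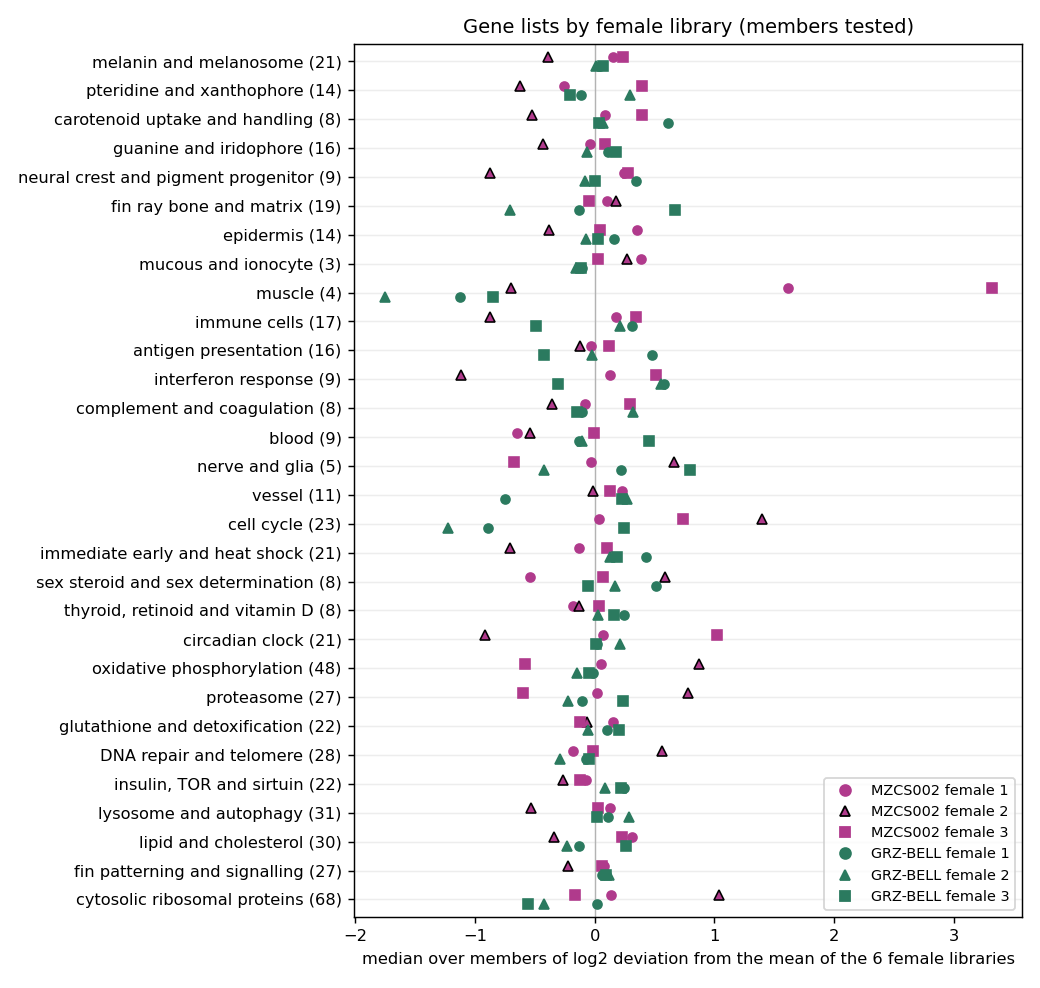
For each list (members tested in brackets) the points give, per female library, the median over its members of the log2 deviation from the mean of the 6 female libraries. MZCS002 female 2, with a black edge, lies at the outer end for many lists, such as 1.40 for the cell cycle and -1.11 for the interferon response. The median of the 4 muscle genes is high in MZCS002 females 1 and 3, though not each of these genes is.

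Some members of the lists were called only without MZCS002 female 2. Of 4 tested muscle genes none was called with all 6 libraries by limma, 2 were at an unadjusted p under 0.05, and edgeR and DESeq2 called 2 each. Of all 15170 tested entries, 15.6% were at an unadjusted p under 0.05, and edgeR called 216 and DESeq2 691. Without MZCS002 female 2, limma called 2.36% of all tested entries. Without MZCS002 female 2, the myosin light chain gene mylpfa (adjusted p = 0.0052) and the skeletal actin gene acta1b (adjusted p = 0.0089) were called higher. In MZCS002 females mylpfa had 44.9, 3.14 and 97.9, against 0, 0 and 0.782 in GRZ-BELL females. For acta1b the values were 44.0, 3.14 and 150 in MZCS002 and 1.17, 0 and 3.13 in GRZ-BELL females. The creatine kinase genes ckma and ckmb were not called (limma adjusted p = 0.20 and 0.67 without MZCS002 female 2). For ckma the values were 18.9, 3.14 and 68.0 in MZCS002 and 8.22, 5.00 and 8.60 in GRZ-BELL females. For ckmb they were 16.2, 22.0 and 31.3 in MZCS002 and 17.6, 10.8 and 9.38 in GRZ-BELL females. The summed level of the 4 muscle genes, to which mylpfa and acta1b gave the most, was 124, 31.4 and 347 in MZCS002 and 15.8 to 27.0 in GRZ-BELL females. The muscle calcium channel gene ryr1b was lower in MZCS002. A pair of ligand genes of the fin patterning list were called lower without that library. The Wnt ligand gene wnt5a had 996, 1637 and 1020 in MZCS002 and 2602, 2102 and 2523 in GRZ-BELL females, with adjusted p of 0.024 without and 0.096 with MZCS002 female 2. The fibroblast growth factor gene fgf24 had 14.4, 75.4 and 23.8 in MZCS002 and 57.6, 104 and 87.6 in GRZ-BELL females, with adjusted p of 0.039 without and 0.26 with it.

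**Figure D4:**
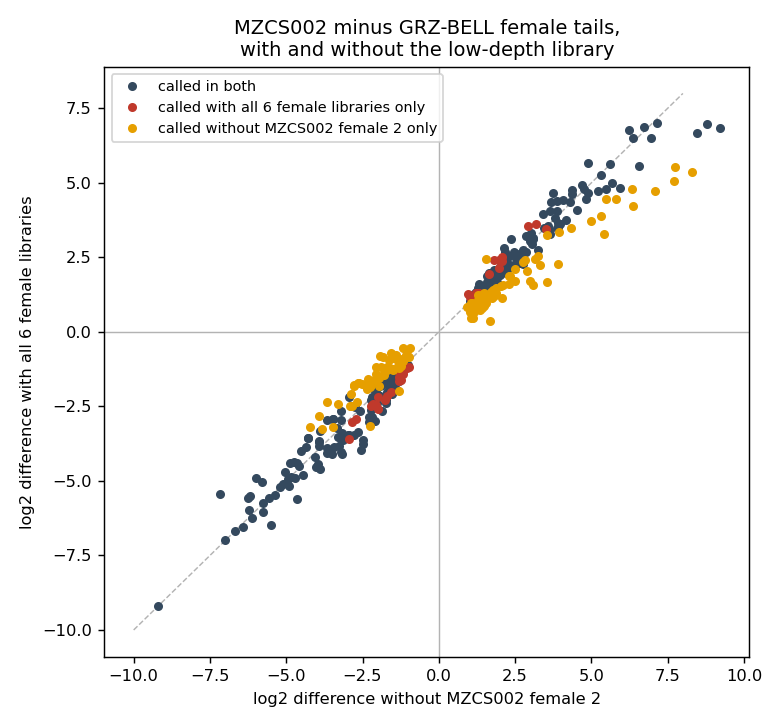
Each point is an entry called between the female tails with all 6 libraries, without MZCS002 female 2, or both; the horizontal axis gives the log2 difference without that library, the vertical axis the difference with it, and the dashed line marks equal values. No called entry changes its sign, and of the 131 entries called only without the library, 128 lie nearer to 0 on the vertical axis than on the horizontal one.

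The strain difference was then set beside that in coloured tails, red tails of MZCS002 against yellow tails of GRZ-BELL. The values of these 6 libraries do not enter the log2 differences between females, but they enter the filter on mean count. An entry low in females can pass that filter through coloured tails. One such gene is lrrc20, with a mean of 12.6 in MZCS002 females, 0.261 in GRZ-BELL females and 32.2 in red tails. The spread per gene was estimated over all 12 libraries for both, so the comparisons are not independent. Of the 264 entries called in females, 243 (92.0%) had the same sign there, against 57.6% of all tested entries, and 160 (60.6%) were called in the same direction, against 5.45% of all tested entries. In either direction 7.43% of all tested entries were called there. The 160 are 14.2% of the 1127 entries called there. Without MZCS002 female 2, whose values enter the spread, 2616 entries (17.2%) were called between coloured tails. Of the 358 entries then called in females, 321 (89.7%) had the same sign and 226 (63.1%) were called in the same direction, against 11.2% of all tested entries. Across the 264 entries, which lie at both extremes by choice, the log2 differences had r = 0.89, with 0.72 within the higher and 0.73 within the lower calls and 0.44 over all tested entries. These values describe genes, which are not independent of each other. Of the 28 named genes with the largest differences, 12 increases and 11 decreases were called in the same direction in coloured tails.

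For slc13a1, red tails had no read in any library and yellow tails had 72.3, 86.8 and 61.8 normalized counts. For mycbpap, red tails had 80.9, 85.1 and 86.0 and yellow tails 0, 1.74 and 2.75, a log2 difference of 5.29 ± 0.53 beside 5.27 in females. For tegt, red tails had 1915, 2669 and 1393 and yellow tails 62.2, 59.0 and 72.8, a log2 difference of 4.88 beside 3.42. For these genes the MZCS002 libraries thus lay on the same side in each kind of tail. In coloured tails colour and strain cannot be told apart, since red tails came from one strain and yellow tails from the other. Of the 28, 5 were not called there. The exchanger gene slc7a11 had 21.5, 4.02 and 13.6 in red and 4.01, 6.08 and 6.87 in yellow tails, and the peptide gene insl5a had 200, 47.4 and 40.7 in red and 4.01, 21.7 and 46.7 in yellow tails. The strain difference in females minus that in coloured tails was -5.56 log2 units for slc7a11 (adjusted p = 0.066) and -6.97 for insl5a (adjusted p = 0.11), both short of the threshold. For pdia2, with 114, 92.4 and 169 in red and 152, 109 and 246 in yellow tails, the difference between the strain differences was 3.02 (adjusted p = 0.052). The genes lye and msrab had strain differences of 1.23 (adjusted p = 0.27) and -0.79 (adjusted p = 0.47) in coloured tails.

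The difference between the strain differences passed the test for 27 entries (0.178%), or 134 (0.883%) without MZCS002 female 2, and 4 of the 264 were among the 27. Besides 2 entries without a symbol these were foxq1a and map7a, of which map7a was chosen after its values were seen. The microtubule-associated protein gene map7a averaged 49.7 ± 3.6 in MZCS002 and 15.9 ± 4.8 in GRZ-BELL females (SD, n = 3 each; log2 1.62, adjusted p = 0.013), while it averaged 51.5 ± 1.8 in red and 267 ± 20 in yellow tails (log2 -2.35, adjusted p = 0.00073). For foxq1a red tails had 2003, 833 and 388 and yellow tails 158, 64.3 and 93.5. Both genes were therefore called in opposite directions in the 2 kinds of tail, and they were the only named ones of the 264 to do so. For foxq1a the call in females was lost with any female library left out, at limma adjusted p up to 0.15.

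**Figure D5:**
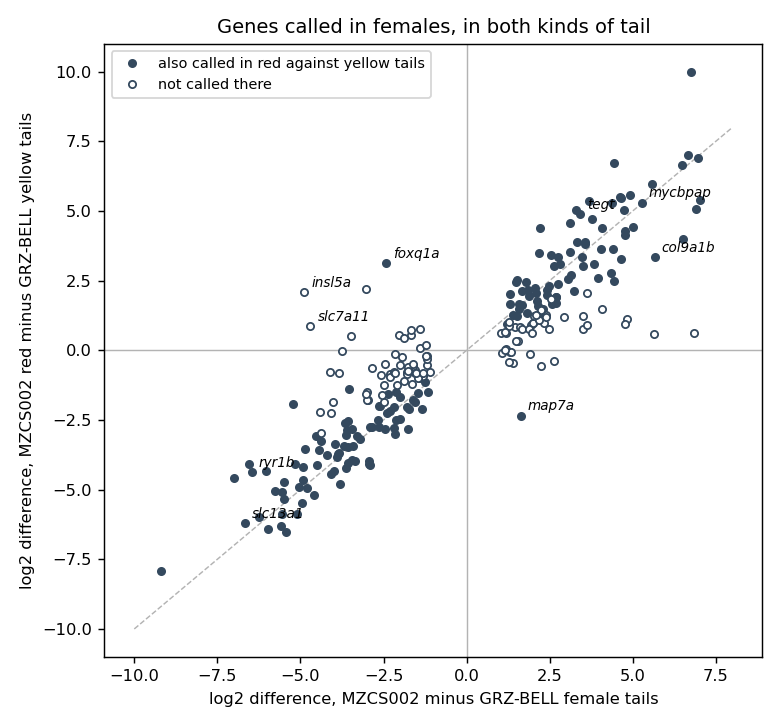
Each point is 1 of the 264 entries called between female tails; the horizontal axis gives the log2 difference MZCS002 minus GRZ-BELL in females, the vertical axis red minus yellow tails, filled points are also called there, and the dashed line marks equal values. Most points, 243 of 264, lie in the quadrants of equal sign, and foxq1a and map7a are the 2 filled points of opposite sign.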

How the data were processed

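RNA was sequenced from 12 tail fins, and the design text states 3 biological replicates per group. Groups and replicate numbers were taken from the sample titles. The labels do not name separate animals or cultures, so p-values measure the spread between these samples. The authors deposited one table whose signal per transcript entry is a read count divided by a size factor per library. Per the submitters' processing notes, Trimmomatic, STAR, featureCounts and DESeq2 were used, with versions, genome build and strand setting not given in the sources used here. Reads were recovered as multiples of each library's smallest value, and 100% of the values were whole at a tolerance of 0.01 reads. Gene symbols came from the RefSeq table of assembly NfurGRZ-RIMD1, which matched 14145 entries (68.0%). No named gene shares its symbol with another entry. Without a stated strand setting, reads of overlapping genes cannot be told apart.

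Differences were tested with limma 3.58.1, run in R 4.3.3 (two-sided, intensity trend, group as the only term, all 12 libraries) on log2(value + 1), which understates the change of low genes. Genes named are those called with and without MZCS002 female 2 that have a symbol and do not overlap between the strains (the 14 largest in each direction), called members of the lists, the 4 called genes of highest mean in each direction, and a fixed set. The fixed set holds 20 genes that cross other comparisons of the study, not all of them in the pigment cell lists. Members and lists were chosen with earlier results of these data known. For a group without a read, folds are bounds against 3 reads per library; intervals and floors cover counting error only, since the labels name no molecular identifier for the reads. The counting intervals come from summed reads and are not centred on the ratio of means. Alternatives were other pseudocounts, filters, scalings, array weights, a replicate block, leave-outs, and edgeR 4.0.16 and DESeq2 1.42.0 on recovered reads of 11 libraries. GRZ-BELL yellow 1 was left out of these count tests because its size factor, 0.996, was too near 1 for the check of recovered reads. Its values were whole at the same tolerance. On simulated data with 200 changed genes among 15170, the female comparison recovered 1.49%, 59.7% and 95.5% of 2-, 4- and 16-fold changes, and 2.99%, 47.8% and 89.4% without MZCS002 female 2. There were 8 false calls with that library and 6 without it. Unchanged genes had one mean and one spread in all simulated libraries, and the spread was estimated with MZCS002 female 2 in both runs. The simulation therefore holds its low depth but not its divergence, and cannot show what leaving it out gains.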

Additional observations from a re-analysis of the deposited data

Results flagged for a closer look

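For 8 of the 20 genes of the fixed set, the strain difference in females and that in coloured tails differed in the test of the difference itself (limma, adjusted over all tested entries). Of all tested entries, 0.178% did so. The set was chosen with earlier results of these data known, so its share of calls is no test of the set. It is not a set of pigment genes only: slc30a8, slc39a6, kcnk3a and foxq1a are in none of the pigment cell lists. Each value is the strain difference in females minus that in coloured tails, on the log2 scale: -10.3 for the neural crest transcription factor gene pax3a (adjusted p = 0.0048), -6.84 for the zinc transporter gene slc30a8 (0.0084), -6.55 for the potassium channel gene kcnk3a (0.047), -5.56 for foxq1a (0.012), -4.07 for the Csf1 receptor ligand gene il34 (0.022), -3.58 for the melanocortin receptor gene mc5ra (0.047), -3.56 for the zinc transporter gene slc39a6 (0.0091) and -2.37 for the melanosome transport gene mreg (0.045). Between females, 7 of the 8 were not called: pax3a had 0, 0 and 0.680 normalized counts in MZCS002 and 7.05, 0 and 0.782 in GRZ-BELL females, and slc39a6 had 119, 179 and 171 in MZCS002 and 240, 137 and 131 in GRZ-BELL females. In coloured tails pax3a had 1028, 956 and 890 in red and 0, 0 and 2.75 in yellow tails. The gene foxq1a was called lower in MZCS002 females and higher in red tails, but its call in females was lost with any female library left out.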

How the results depend on the processing

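The 44 named genes that were called kept their direction in all 1127 values computed under the alternatives, 912 of which passed the threshold. The values of the 2 strains did not overlap in any called gene. Leaving out a library or changing the pseudocount or filter therefore could not reverse a direction, and the kept direction is no test of these calls. Of the 44, 19 genes kept the call with each female library left out, and 33 were called by edgeR and 44 by DESeq2. The count tests used the same libraries from which the 44 were picked, so they are no separate test of these genes. Of 15170 entries, 264 were called between females; the count was 145 at a minimum mean of 50, 74 in a fit on the female libraries alone (17 of the 44 named), 1398 with array quality weights, 691 with DESeq2, 663 with DESeq2 and 414 with the female-only fit when MZCS002 female 2 was also left out, and 197 to 249 when a red or yellow library was left out (these leave-outs and the 414 were chosen after seeing the data). Leaving out each female library gave 111 to 358. Replicate numbers did not pair the samples (r of -0.10, -0.16 and -0.12 for equal numbers), and a fit with the replicate block called 210 between females and 14 for the difference between the strain differences. The 1127 calls between coloured tails became 1767 in a fit on those groups alone, 8233 with array weights, 370 with edgeR, 2616 without MZCS002 female 2, and 342 to 1150 when one red or yellow library was left out. The 27 calls for the difference between the strain differences became 16 and 68 with pseudocounts of 0.5 and 10, 13 at a minimum mean of 50, 3727 with array weights, 8 with edgeR, 243 with DESeq2, and 7 to 134 with one library left out. The cause of these shifts was not tested. Of the fixed set, 9 genes that were not called changed sign. The log2 change of dct was 0.018 with quantile normalization and, without MZCS002 female 2, 0.022 in a female-only fit, 0.043 with edgeR and 0.030 with DESeq2 (leave-outs -0.17 to 0.064). The log2 change of pmela was -0.053 at equal totals (leave-outs -0.10 to 0.63). For gch2 it was -0.73 with edgeR, -0.76 with DESeq2, and -0.38 and -0.41 with these without MZCS002 female 2 (leave-outs -0.30 to 2.23). The log2 change of pax7a was -0.039 with array weights. For pnp4a it was 0.37 with array weights, 0.014 with quantile normalization, 0.020 with edgeR, 0.0047 with DESeq2 and, without MZCS002 female 2, 0.25 in a female-only fit, 0.27 with edgeR and 0.26 with DESeq2 (leave-outs -1.27 to 0.25). The log2 change of ar was -0.26 with array weights, -0.069 at equal totals and, without MZCS002 female 2, -0.10 in a female-only fit, -0.092 with edgeR and -0.11 with DESeq2 (leave-outs -0.10 to 0.40). For mc5ra it was -0.13 at equal totals (leave-outs -0.34 to 0.56), and leave-outs gave -0.12 to 1.21 for xdh and -0.23 to 0.20 for slc39a6. Depth limits low genes: 3 reads are worth 9.43 normalized units in MZCS002 female 2.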

Other observations

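In 9 tested entries no MZCS002 female had a read while each GRZ-BELL female had 3 or more, and all 9 were called. Besides slc13a1 and abcc8 they carry no gene symbol. The entry with the largest difference had no read in MZCS002 females, averaged 662.6 normalized counts in GRZ-BELL females and was at least 140.4-fold lower in MZCS002, or 279.9-fold without MZCS002 female 2. In 6 entries the reverse held, 5 of them called and col9a1b the only one with a symbol. The same absence was seen between red and yellow tails for 2 of the 9 and 3 of the 6. The share of all tested entries with such an absence there is not given, so these counts cannot be read as an excess. Of all tested entries, 1.74% were called between females. The 9 and the 6 were picked for a full separation of the strains, so their calls follow largely from that choice.

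Among the entries placed in the gene table, 10 of 301 tested neighbours of called entries were themselves called (3.32%), against 1.38% of placed entries. They form 5 adjacent pairs, of which 3 moved the same way. The pair hapln4 and ncanb, both genes of the hyaluronan matrix around neurons, was lower in MZCS002 females (log2 -4.92 and -3.21) and in red against yellow tails (-4.18 and -3.20). The pair ryr1b and a locus without a gene symbol moved in opposite directions (-6.47 and 3.62). Reads of overlapping neighbours cannot be told apart where the strand setting is unknown.

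The gene dohh, whose product completes the hypusine modification of eIF5A, was chosen after its values were seen, because eif5a2 was called. It averaged 848 ± 207 in MZCS002 and 280.5 ± 22 in GRZ-BELL females (SD, n = 3 each; log2 1.57, limma adjusted p = 0.0035, and 0.0047 without MZCS002 female 2). Its log2 difference between red and yellow tails was 1.47 (adjusted p = 0.0031).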
